A study of Mus musculus with 2 samples.

Results

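The 46 genes described here encode nuclear hormone receptors, and all 46 were found by gene symbol and Ensembl identifier among the 36227 genes of the deposited count table. They were measured in 2 libraries of mouse oocytes arrested at metaphase II, the stage at which the egg is ovulated. The slimming library came from mothers that had spent 4 weeks in enriched-environment cages, and the control library from mothers left in normal cages on a standard diet. All mothers were females of the outbred ICR strain that were obese by 12 weeks of age, and oocytes were taken at 16 weeks after natural ovulation. Each library pooled 9 oocytes, 3 from each of 3 mice, in 1 tube before amplification, so there is 1 library per group and no difference below has a replicate check. Every difference describes these 2 libraries and not the conditions. In a pooled library, fewer cells carrying a transcript and less of it per cell cannot be told apart.

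Nuclear receptors are transcription factors, most of which bind a small fat-soluble ligand such as a steroid, a retinoid, thyroid hormone, a fatty acid or an oxysterol. Ligand binding exchanges corepressors for coactivators on the DNA-bound receptor, and members without a known ligand are called orphan receptors. The fully grown mouse oocyte makes almost no new RNA, so receptor mRNA in the ovulated egg is mostly mRNA stored during growth. The granulosa cells around the oocyte are the best-known site of action for steroid receptors and for the NR4A and NR5A families in the ovary.

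The slimming library held 20947962 counts and the control library 20242289. Levels are in CPM, the count scaled by the library's total count. The limit used for a gene without a count is what 3 counts are worth, 0.143 CPM in slimming oocytes and 0.148 CPM in control oocytes; the exact interval used for levels reaches 0.176 CPM (slimming) and 0.182 CPM (control) there. Of 16 oocyte marker genes, 14 reached 10 CPM in either library. Intervals below are exact 95% intervals and cover counting error only, since PCR copies were not separated from independent molecules.

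Of the 46 receptors, 12 reached 10 CPM in at least 1 library and are called expressed here. A further 14 reached 1 CPM but not 10, 11 had counts below 1 CPM, and 9 had no count in either library. The 26 receptors above 1 CPM came from nearly every branch of the family, including orphan, steroid, retinoid, thyroid, PPAR and sterol receptors. Together the 46 genes held 30035 counts, or 1433.8 CPM, in slimming oocytes and 24336 counts, or 1202.2 CPM, in control oocytes. A single gene, Nr6a1, supplied 73.8% of that sum in slimming oocytes and 69.7% in control oocytes. Without Nr6a1 the sum was 376.3 CPM in slimming oocytes and 364.2 CPM in control oocytes.

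**Figure D1:**
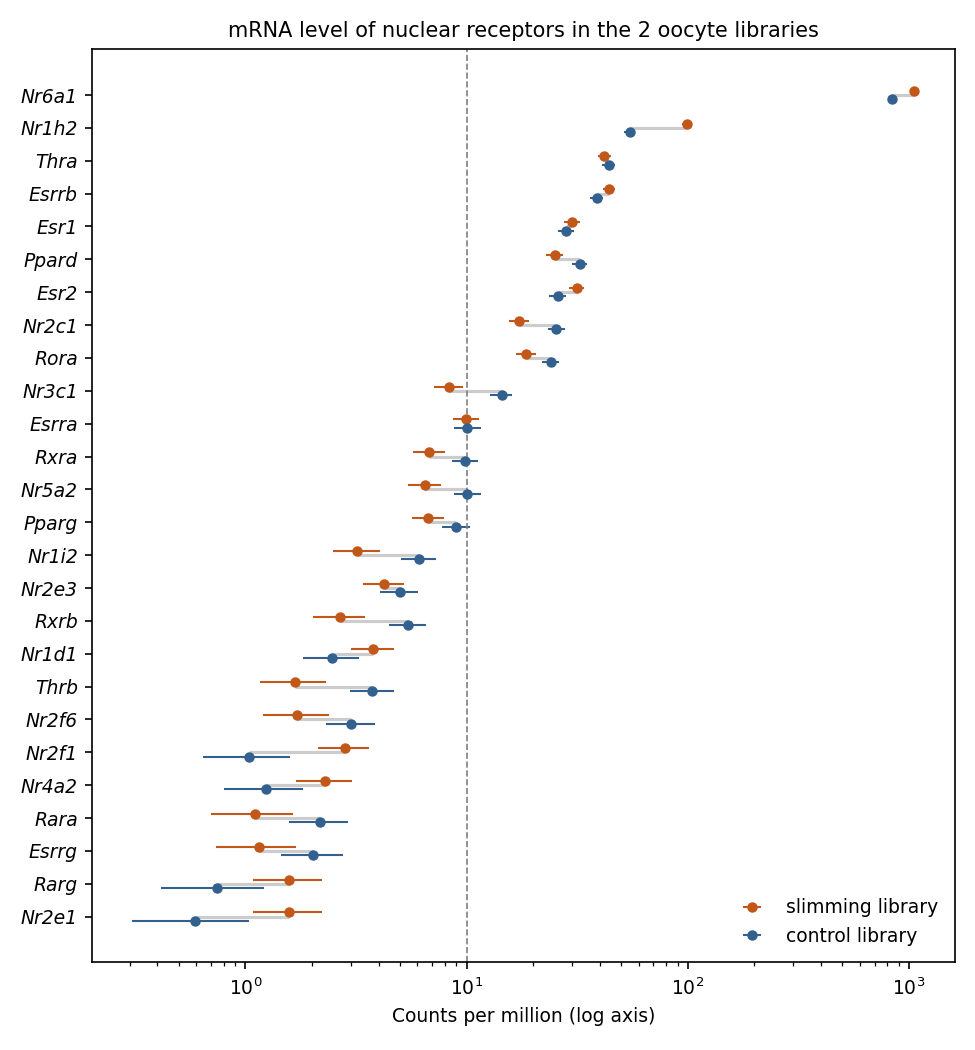
mRNA level of the 26 receptors with at least 1 CPM, in CPM on a log axis, with orange points for the slimming library, blue points for the control library and bars for the 95% counting interval of each level. The dashed line marks 10 CPM. Nr6a1 lies far to the right of all other receptors in both libraries, followed by Nr1h2.

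Many receptors recognise the 6-base motif AGGTCA, alone or as a repeat. The promoters of 3 genes are shown because the results begin with them: Nr6a1 as the most abundant receptor, Nr1h2 as the expressed receptor with the highest ratio of slimming over control, and Pou5f1 as a gene that Nr6a1 is known to repress in mouse. Each window runs from 250 bases before to 50 bases after a start of the gene in RefSeq (GRCm38.p6), is written 5′ to 3′ on the gene's strand, and has AGGTCA or its reverse complement TGACCT in capitals.
Nr6a1 (chr2:38784466-38784765, minus strand): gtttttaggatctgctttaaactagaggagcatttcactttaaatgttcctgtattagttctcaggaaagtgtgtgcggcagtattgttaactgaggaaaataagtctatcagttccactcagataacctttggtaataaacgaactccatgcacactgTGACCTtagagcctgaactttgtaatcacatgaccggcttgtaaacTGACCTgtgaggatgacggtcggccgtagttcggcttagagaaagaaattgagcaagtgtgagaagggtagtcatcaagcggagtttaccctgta
Nr1h2 (chr7:44553916-44554215, minus strand): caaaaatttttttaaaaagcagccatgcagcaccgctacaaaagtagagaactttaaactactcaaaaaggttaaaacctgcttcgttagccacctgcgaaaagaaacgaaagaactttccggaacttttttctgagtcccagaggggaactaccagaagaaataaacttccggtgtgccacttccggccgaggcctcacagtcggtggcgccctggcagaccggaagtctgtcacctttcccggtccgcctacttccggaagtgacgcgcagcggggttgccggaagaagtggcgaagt
Pou5f1 (chr17:35505782-35506081, plus strand): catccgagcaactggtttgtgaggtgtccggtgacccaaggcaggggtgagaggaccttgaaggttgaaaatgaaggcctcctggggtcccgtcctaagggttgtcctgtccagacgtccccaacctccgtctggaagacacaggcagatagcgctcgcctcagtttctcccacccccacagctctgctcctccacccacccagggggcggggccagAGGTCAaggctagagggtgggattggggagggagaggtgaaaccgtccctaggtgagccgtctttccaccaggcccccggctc

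The Pou5f1 window held 1 match, from base -33 to base -28 relative to the start. The Nr6a1 window held 2 matches, both on the reverse strand, at bases -91 to -86 and -45 to -40. RefSeq lists 2 starts each for Nr6a1 and Pou5f1, and the window with matches was chosen for display; the other window of each gene held 0. The Nr1h2 window held no match. Windows on chromosome 18, where Nr3c1 lies, were left out. Over the 42 receptors with a window that remained, 11 (26.2%) had the motif on either strand in at least 1 window. Over 27025 genes the share was 18.1%. Expressed receptors with the motif were Nr6a1 and Nr5a2, 2 of 10 with a window. Those of 1 to 10 CPM with the motif were Pparg, Rara, Rarg, Rxra and Thrb. The 42 receptors had 63 windows and the 27025 genes 32851, so receptors had more windows per gene in which to match. Of the 32851 windows 16.3% held a match, and the share of receptor windows with a match was not computed. A match is a description of the letters and not a binding site shown by these data, and the genes carrying it were lower as well as higher in slimming oocytes.

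Nr6a1 (ENSMUSG00000063972, chromosome 2), also called germ cell nuclear factor, is an orphan receptor that silences genes through repeats of the motif without a spacer. It had 22152 counts (1057.5 CPM) in slimming oocytes and 16964 counts (838.0 CPM) in control oocytes. By CPM it ranked 128 in slimming oocytes and 180 in control oocytes among 18017 genes with counts. Slimming over control gave a log2 ratio of 0.30 (interval 0.28 to 0.33), or 1.23-fold higher in slimming oocytes. Scaling by total count instead gave 0.34, outside that interval. Both values are well under the 2-fold size used here to single out a gene. Between 300 and 1000 CPM the 5th and 95th percentiles of all genes lay at log2 ratios of -0.47 and 0.46, on either side of Nr6a1.

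None of the 12 expressed receptors was at least 2-fold apart between the libraries, beside 4.67% of the 5714 expressed genes. At a share that low, 0 of 12 does not set the receptors apart from other genes. Counted by direction, 0 receptors were that much higher and 0 that much lower after slimming, beside 2.73% and 1.94% of expressed genes. The counting interval lay above equal levels for 4 of the 12 and below for 5, against 37.7% and 35.1% of expressed genes. Their median log2 ratio was -0.08, beside 0.02 for all expressed genes. Among these 12, Nr3c1, Nr5a2 and Esrra passed 10 CPM in control oocytes alone, and a gene that passes in 1 library alone had to be higher there.

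**Figure D2:**
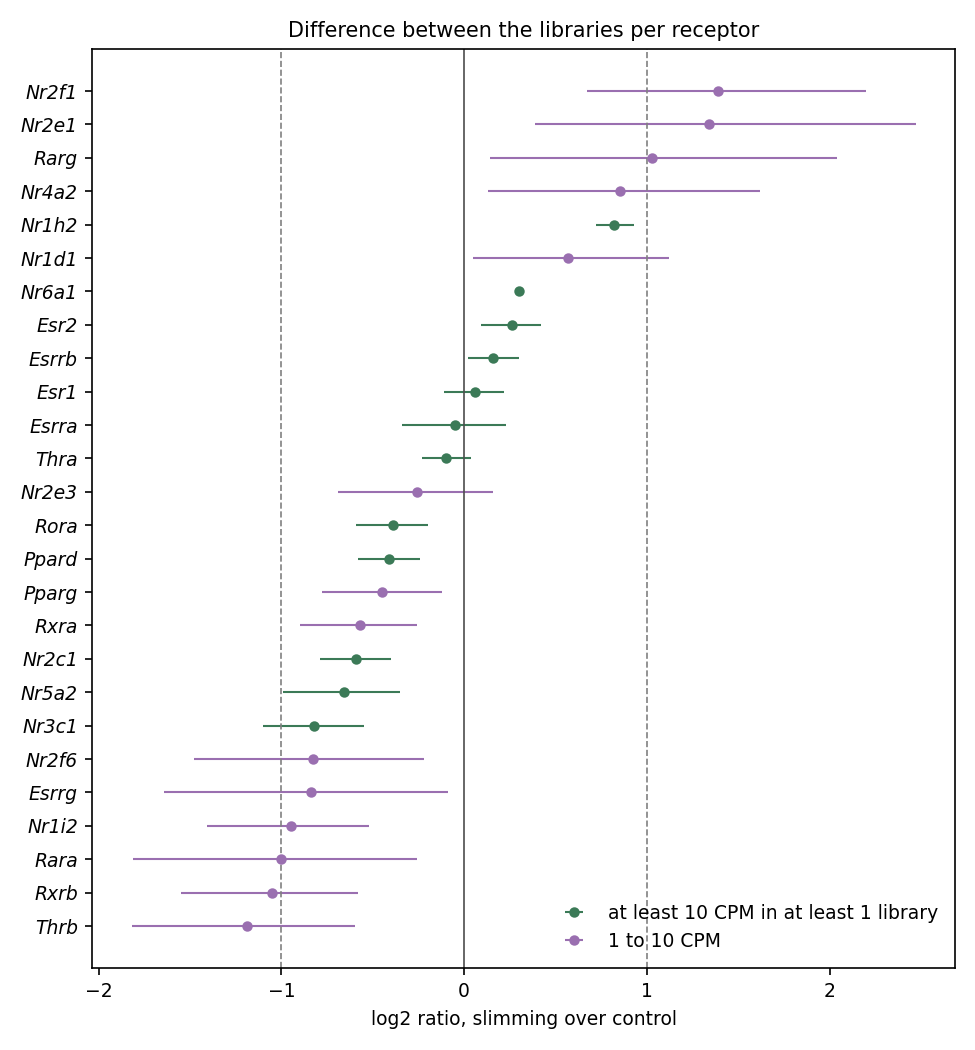
log2 ratio of slimming over control for the 26 receptors with at least 1 CPM, with 95% counting intervals, in green for receptors reaching 10 CPM in either library and in purple for those of 1 to 10 CPM. Dashed lines mark 2-fold. The 12 green points lie between -0.82 and 0.82, and the points beyond the dashed lines are all purple.

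The sterol-sensing receptors were led by Nr1h2, the liver X receptor beta, which binds oxysterols and turns on cholesterol export. Nr1h2 (ENSMUSG00000060601, chromosome 7) had 2070 counts (98.8 CPM) in slimming oocytes and 1106 counts (54.6 CPM) in control oocytes. It was 1.77-fold higher in slimming oocytes, at a log2 ratio of 0.82 (interval 0.72 to 0.93). This was the highest ratio of the 12 and lay above the 95th percentile of all genes between 50 and 100 CPM, which was 0.70. Its sister gene Nr1h3, the liver X receptor alpha, had no count in either library, nor did the bile acid receptor Nr1h4. The xenobiotic receptor Nr1i2 had 67 counts (3.20 CPM) in slimming oocytes against 123 counts (6.08 CPM) in control oocytes, a log2 ratio of -0.95 (interval -1.41 to -0.52). Nr1i3, a related xenobiotic receptor, had 0 (slimming) and 2 (control) counts.

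Among steroid receptors, both estrogen receptors were at similar levels in the libraries and the glucocorticoid receptor was lower in slimming oocytes. Esr1 had 629 counts (interval 27.7 to 32.5 CPM) in slimming oocytes and 571 counts (25.9 to 30.6 CPM) in control oocytes, a log2 ratio of 0.06 whose interval, -0.11 to 0.22, included 0. Esr2 had 659 counts (31.5 CPM) in slimming oocytes and 522 counts (25.8 CPM) in control oocytes, at 0.26 (0.09 to 0.42). Nr3c1 (ENSMUSG00000024431, chromosome 18), the glucocorticoid receptor, had 174 counts (8.31 CPM) in slimming oocytes and 291 counts (14.4 CPM) in control oocytes. It was 1.77-fold lower in slimming oocytes, at a log2 ratio of -0.82 (-1.10 to -0.55), the lowest of the 12 and below the 5th percentile of genes between 10 and 20 CPM, which was -0.79. The progesterone receptor Pgr, which granulosa cells make at ovulation, and the mineralocorticoid receptor Nr3c2 had no count in either library.

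The estrogen-related receptors, orphans that do not bind estrogen, differed little where they were abundant. Esrrb, a pluripotency factor of mouse embryonic stem cells, had 925 counts (44.2 CPM) in slimming oocytes and 784 counts (38.7 CPM) in control oocytes, at a log2 ratio of 0.16 (0.02 to 0.30). Esrra, which drives mitochondrial genes together with PGC-1 coactivators, had 209 counts (9.98 CPM) in slimming oocytes and 205 counts (10.1 CPM) in control oocytes, at -0.05 (-0.34 to 0.23). Esrra shares 73 exon bases with Trmt112 on the opposite strand. Esrrg, the third of them, had 24 counts (1.15 CPM) in slimming oocytes and 41 counts (2.03 CPM) in control oocytes, a log2 ratio of -0.84 (-1.64 to -0.09).

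Retinoid receptors and their partners were all under 10 CPM. The retinoid X receptors are the common partners of retinoic acid, thyroid, vitamin D, PPAR and liver X receptors. Rxra had 142 counts (6.78 CPM) in slimming oocytes and 200 counts (9.88 CPM) in control oocytes, just short of being counted as expressed, at a log2 ratio of -0.57 (-0.90 to -0.26). Rxrb had 56 counts (2.67 CPM) in slimming oocytes and 110 counts (5.43 CPM) in control oocytes, at -1.05 (-1.55 to -0.58), and Rxrg had 0 (slimming) and 1 (control) counts. Rxra and Rxrb, the retinoid X receptors above 1 CPM, were thus both lower in slimming oocytes. The retinoic acid receptors went opposite ways: Rara had 23 counts (1.10 CPM) in slimming oocytes against 44 counts (2.17 CPM) in control oocytes, which is 2-fold lower (log2 interval -1.81 to -0.26), while Rarg had 33 counts (1.58 CPM) in slimming oocytes against 15 counts (0.741 CPM) in control oocytes, at 1.03 (0.14 to 2.04). Rara and Rarg lie at the 2-fold limit and moved across it with the scaling or the number added to each count, as did Rxrb. Rarb had no count; it shares 1793 exon bases with Top2b on the opposite strand, which had 877 counts in slimming and 807 in control oocytes.

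The thyroid hormone receptors were Thra, expressed at nearly equal levels, and Thrb, lower in slimming oocytes. Thra had 879 counts (42.0 CPM) in slimming oocytes and 890 counts (44.0 CPM) in control oocytes, at a log2 ratio of -0.10 (-0.23 to 0.04). Thrb had 35 counts (1.67 CPM) in slimming oocytes and 76 counts (3.75 CPM) in control oocytes, at -1.19 (-1.82 to -0.60), the lowest ratio of the 26 receptors above 1 CPM. The vitamin D receptor Vdr had 0 counts in slimming oocytes and 1 in control oocytes.

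Of the PPARs, which sense fatty acids, 2 were measurable and both were lower in slimming oocytes. Ppard had 523 counts (interval 22.9 to 27.2 CPM) in slimming oocytes and 657 counts (32.5 CPM) in control oocytes, at a log2 ratio of -0.41 (-0.58 to -0.24). Pparg, the fat cell regulator, had 141 counts (6.73 CPM) in slimming oocytes and 182 counts (8.99 CPM) in control oocytes, at -0.45 (-0.78 to -0.12). Ppara had 10 counts in slimming oocytes and 7 in control oocytes. The Ppard and Pparg ratios lay between the 5th and 95th percentiles of genes at the same level.

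The REV-ERB and ROR receptors bind the same DNA elements in clock genes and act against each other there, REV-ERB as repressor and ROR as activator. Rora had 390 counts (18.6 CPM) in slimming oocytes and 485 counts (24.0 CPM) in control oocytes, at a log2 ratio of -0.39 (-0.59 to -0.20). Nr1d1, REV-ERB alpha, had 79 counts (3.77 CPM) in slimming oocytes and 50 counts (2.47 CPM) in control oocytes, at 0.57 (0.05 to 1.12). The 2 genes thus differed in opposite directions between the libraries. Nr1d1 and Thra are neighbours that share 263 exon bases on opposite strands, and as the use of strand is not stated, Nr1d1 counts in that stretch could come from Thra, which had over 10 times as many. Nr1d2, REV-ERB beta, had 10 (slimming) and 5 (control) counts, and Rorb had 2 (slimming) and 0 (control) counts.

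Among orphan receptors of the NR2 family, Nr2c1, testicular receptor 2, was the single expressed gene. It had 362 counts (17.3 CPM) in slimming oocytes and 516 counts (25.5 CPM) in control oocytes, 1.51-fold lower in slimming oocytes at a log2 ratio of -0.59 (-0.79 to -0.40). Its partner Nr2c2, testicular receptor 4, had 12 (slimming) and 18 (control) counts and shares 4590 exon bases with Mrps25, which had 1605 (slimming) and 1385 (control) counts. The highest ratios of all 26 receptors were here too, but at very low levels: Nr2f1, a COUP transcription factor, had 59 counts (2.82 CPM) in slimming oocytes and 21 counts (1.04 CPM) in control oocytes, at 1.39 (0.67 to 2.20). Nr2e1, a receptor of neural stem cells, had 33 counts (1.58 CPM) in slimming oocytes and 12 counts (0.593 CPM) in control oocytes, at 1.34 (0.39 to 2.47). Between 1 and 2 CPM, the 5th and 95th percentiles of all genes lay at -2.73 and 2.28, well beyond both ratios. Rarg and Nr2e1 passed 1 CPM in slimming oocytes alone.

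Other NR2 genes were lower or not clearly different. Nr2f6, a COUP-related repressor, had 36 counts (1.72 CPM) in slimming oocytes and 61 counts (3.01 CPM) in control oocytes, at a log2 ratio of -0.83 (-1.48 to -0.22). It shares 1622 exon bases on opposite strands with Ocel1, whose counts of 33 in slimming and 58 in control oocytes are close to its own. Nr2e3, a photoreceptor gene, had 89 counts (4.25 CPM) in slimming oocytes and 101 counts (4.99 CPM) in control oocytes, at -0.26 (-0.69 to 0.16), and shares 61 exon bases with Gm15507, which had 3242 (slimming) and 1789 (control) counts. Nr2f2, a COUP transcription factor of stromal cells, had 1 count in slimming oocytes and 14 in control oocytes, at -3.35 with a wide interval of -9.29 to -1.17. Hnf4a, a liver and gut receptor, had 13 (slimming) and 20 (control) counts, and Hnf4g had none.

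Of the NR5A and NR4A receptors, which act in ovarian steroid synthesis and early gene responses, 2 could be compared. Nr5a2, liver receptor homolog 1, which mouse granulosa cells need for ovulation, had 136 counts (6.49 CPM) in slimming oocytes and 204 counts (10.1 CPM) in control oocytes. Its log2 ratio was -0.66 (-0.99 to -0.35), or 1.58-fold lower in slimming oocytes. Nr5a1, steroidogenic factor 1, had 0 counts in slimming oocytes and 2 in control oocytes. Nr4a2 had 48 counts (2.29 CPM) in slimming oocytes and 25 counts (1.24 CPM) in control oocytes, at 0.85 (0.13 to 1.62), while Nr4a1 and Nr4a3 had no count. Of the receptors that lack a DNA-binding domain, Nr0b2 had 14 (slimming) and 10 (control) counts, and Nr0b1 had none.

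Because granulosa and other ovarian cells also make several of these receptors, markers of such cells were set beside them. Of 17 cumulus and granulosa markers, 9 had no count in either library, among them the defining genes Fshr, Foxl2, Amh, Amhr2, Hsd17b1 and Lhcgr, with Star, Ptx3 and Pgr. The list sum was 532.5 CPM in slimming and 528.2 CPM in control oocytes, mostly from Serpine2 at 491.2 (slimming) and 474.6 (control) CPM. Next was Cyp19a1, the aromatase gene, with 723 counts (34.5 CPM) in slimming and 793 counts (39.2 CPM) in control oocytes. Inha had 0 counts in slimming oocytes and 63 in control oocytes, Inhba 0 (slimming) and 12 (control) counts, and Tnfaip6 0 (slimming) and 8 (control) counts. These were lower in slimming oocytes, as was Nr5a2, which is itself in the list along with Nr5a1 and Pgr. Of the 3 expressed members of the list, 1 was higher and 2 were lower in slimming oocytes. Has2, of the same list, is not reported here. Macrophages also make Nr3c1 and Pparg, and macrophage and immune markers summed to 27.6 CPM in slimming and 45.2 CPM in control oocytes over 13 genes. Most of that came from H2-Aa at 17.9 (slimming) and 27.2 (control) CPM. The others did not all differ alike, with Laptm5 at 86 (slimming) and 75 (control) counts, C1qb at 38 (slimming) and 38 (control) counts, Cd68 at 79 (slimming) and 103 (control) counts, Fcer1g at 0 (slimming) and 62 (control) counts, Tyrobp at 0 (slimming) and 57 (control) counts, and Cd74 at 0 in both. Theca and stroma markers summed to 2.29 (slimming) and 0.198 (control) CPM over 9 genes, almost all from Acta2 with 43 (slimming) and 0 (control) counts, and 5 of the 9 had no count, namely Cyp17a1, Insl3, Col1a2, Lum and Pdgfra. Oviduct epithelium markers summed to 246.0 (slimming) and 245.9 (control) CPM over 9 genes, mostly from Cdh1, with Foxj1 at 0. Lower in slimming oocytes within that list were Tppp3 with 93 (slimming) and 210 (control) counts, Ovgp1 with 0 (slimming) and 6 (control) counts and Epcam with 10 (slimming) and 20 (control) counts. The 2 expressed members of the list were 1 higher and 1 lower, at log2 ratios of 0.01 and -1.25. Krt8, Krt18, Dnah5 and Pax8 of that list are not reported here. Sperm markers summed to 558.4 (slimming) and 647.2 (control) CPM over 8 genes, mostly from Odf2, with Prm1, Tnp1, Tnp2 and Smcp at 0. The part of these cells in the receptor differences was not tested.

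Among the 14 receptors of 1 to 10 CPM, 3 were at least 2-fold higher (Nr2f1, Nr2e1 and Rarg) and 3 at least 2-fold lower (Thrb, Rxrb and Rara), where 16.7% and 16.5% of the 5296 genes at that level were, or 33.2% in both directions. Direction was split, with 5 higher and 9 lower in slimming oocytes and a median log2 ratio of -0.51, beside 0.02 for all genes of 1 to 10 CPM. The counting interval lay above equal levels for 5 and below for 8, against 27.8% and 28.0% of genes at that level. Of all 26 receptors above 1 CPM, 24 lay between the 5th and 95th percentiles of genes at their level; the exceptions were Nr1h2 above and Nr3c1 below. By construction 10% of all genes lie outside those limits.

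**Figure D3:**
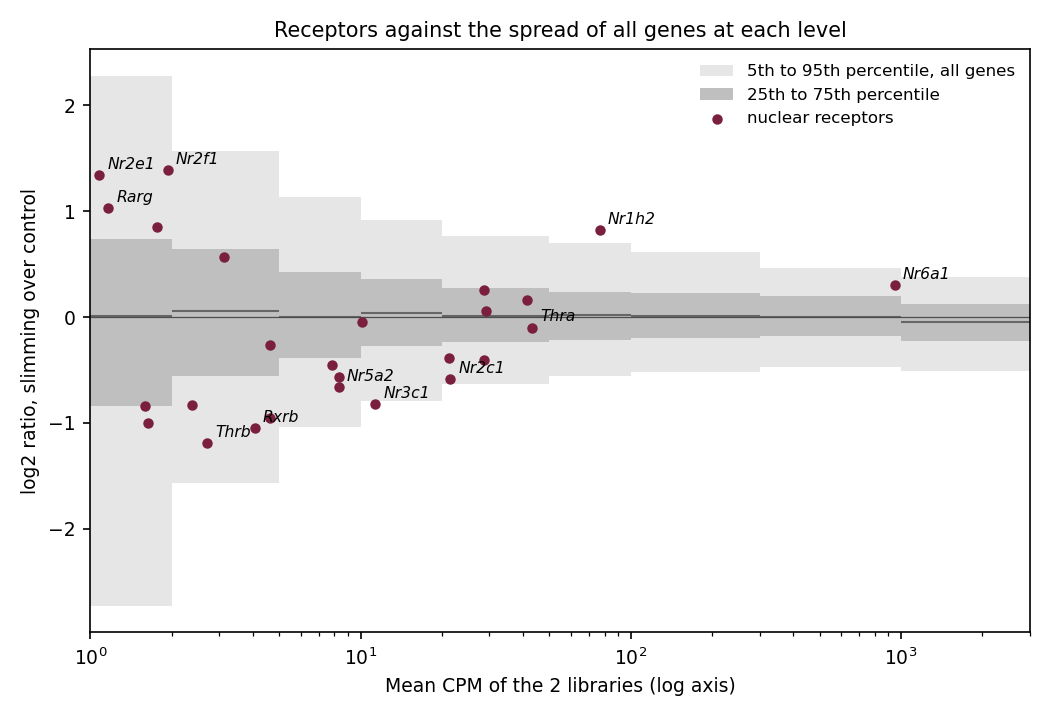
log2 ratio of slimming over control against the mean CPM of the 2 libraries on a log axis, with dark red points for the 26 receptors above 1 CPM and grey bands for the 5th to 95th and 25th to 75th percentiles of all genes in 9 ranges of level. The bands widen toward low levels, Nr1h2 lies above the outer band, and Nr3c1 lies just below it.

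Between genes, levels were compared per kilobase of merged exons. On that scale Nr6a1 led with 174.4 CPM per kilobase in slimming and 138.2 in control oocytes, then Nr1h2 with 49.3 in slimming and 27.2 in control oocytes, and Thra with 13.3 in slimming and 13.9 in control oocytes. Below these 3 the libraries did not give 1 order. Esr2 (9.34 slimming, 7.66 control CPM per kilobase), Esrrb (7.85 slimming, 6.88 control) and Ppard (7.62 slimming, 9.90 control) followed in slimming oocytes, whereas Ppard preceded Esr2 and Esrrb in control oocytes. Esrra (4.45 slimming, 4.52 control), Esr1 (3.87 slimming, 3.64 control) and Nr2c1 (3.75 slimming, 5.53 control) came next in both, again in a different order. Rora (1.66 slimming, 2.13 control), Nr3c1 (1.27 slimming, 2.20 control) and Nr5a2 (1.16 slimming, 1.81 control) were lowest, and the short Pparg transcript, though not called expressed, stood above them at 2.83 (slimming) and 3.78 (control) CPM per kilobase. Only 4 of the 12 (Nr6a1, Nr1h2, Thra and Nr5a2) held the same rank in both libraries, so neighbours below the first 3 cannot be ordered from these libraries. Priming at the poly(A) tail can favour 3′ ends, which makes a division by length uncertain.

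Transcript length also moved with the ratio across all genes. In 5 equal groups of expressed genes by their longest transcript, the median log2 ratio was 0.18 in the shortest and -0.09 in the longest. The longest transcripts of the expressed receptors had a median of 4016 bases, against 3161 for all expressed genes, with 0 receptors in the shortest group and 4 in the longest. The part of length in the receptor ratios was not tested.

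The genes that act with the receptors were compared in 14 lists. Over 191 distinct genes listed besides the receptors, 74 were expressed, of which 36 were higher and 38 lower in slimming oocytes. At least 2-fold apart were 1 higher, the coactivator Kmt2d, and 1 lower, the apolipoprotein Apoe, where 2.73% and 1.94% of all expressed genes were that much higher and lower. Kmt2d and Apoe reached 10 CPM only in the library where they were higher, as did Kdm1a, Fkbp4, Dhrs3, Hsd17b4, Soat1, Cd36 and Bhlhe41 among the genes named below. The median log2 ratio of the 74 was -0.04, beside 0.02 for all expressed genes. Genes under 10 CPM are left out of these counts, and those named below were chosen after their values were seen.

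Expressed coregulators showed no common direction. Of those of 1 to 10 CPM, none was at least 2-fold higher in slimming oocytes, and Ncoa7, Nrip1 and Lcor were at least 2-fold lower. Ncoa7 had 38 (slimming) and 161 (control) counts, Nrip1 47 (slimming) and 132 (control), and Lcor 60 (slimming) and 114 (control). Among all genes of 1 to 10 CPM 16.5% were that much lower and 16.7% that much higher. In the lists from here on, a bracket after the levels holds the log2 ratio and, where given, its interval. Of 15 corepressor genes 6 were expressed, 3 higher and 3 lower, with a median log2 ratio of -0.07. The scaffold Sin3a had 440.0 CPM in slimming and 537.4 CPM in control oocytes (log2 -0.32), and Hdac3, the deacetylase of the NCoR complex, had 31.2 (slimming) and 34.6 (control) CPM (-0.18). Ncor1, a core subunit of that complex, had 26.4 CPM in slimming and 31.0 CPM in control oocytes (log2 -0.27, interval -0.43 to -0.10). Cir1, another corepressor, was higher in slimming oocytes, with 28.1 (slimming) against 17.3 (control) CPM (0.67). Sin3a, Ncor1, Cir1 and Ncoa7 share exon bases with another gene. So do Carm1, Pprc1, Ep300, Srebf1, Dusp1, Arntl, Bhlhe41, Pou5f1, Cyp11a1, Srd5a1, Dio2, Scd2 and Abcg8 named below. The counts of all these genes are uncertain to that extent.

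Of 23 coactivator genes 15 were expressed, 6 higher and 9 lower, with a median log2 ratio of -0.05. Ncoa6 and Med1, the Mediator subunit that contacts receptors, had the highest CPM of the list and were close to equal, Ncoa6 at 141.5 CPM in slimming and 151.0 CPM in control oocytes and Med1 at 101.2 CPM in slimming and 102.2 CPM in control oocytes. Kmt2d, a histone methyltransferase, had 13.2 CPM in slimming oocytes and 6.03 CPM in control oocytes, 2.13-fold higher in slimming oocytes (log2 1.09, interval 0.78 to 1.42). Kdm1a (16.3 slimming against 8.45 control CPM, log2 0.92), the methyltransferase Carm1 (71.0 slimming against 37.6 control CPM, 0.89) and Pprc1 (34.7 slimming against 21.8 control CPM, 0.64) were higher too. Carm1 shares 1025 exon bases on opposite strands with Yipf2. The counts of Yipf2, 1492 (slimming) and 810 (control), are close to those of Carm1, 1487 (slimming) and 761 (control). The acetyltransferase Ep300 was lower, at 17.0 CPM in slimming oocytes and 25.7 CPM in control oocytes (-0.63). Receptor chaperones were split evenly, 5 higher and 5 lower of 10 expressed, between Fkbp4 at -0.58 and Ppp5c at 0.25; Hsp90ab1 led with 581.2 CPM in slimming and 507.7 CPM in control oocytes. Next in CPM were Fkbp5 with 208.4 (slimming) and 180.1 (control) CPM (0.18) and Hsp90aa1 with 160.8 (slimming) and 190.1 (control) CPM (-0.27), in the opposite order in control oocytes.

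In ligand supply, 7 of 20 genes of retinoid handling were expressed, 6 higher and 1 lower in slimming oocytes, with a median log2 ratio of 0.17. Over all expressed genes 51.4% were higher. A counting interval above equal levels was found for 5 of the 7, against 37.7% of all expressed genes, and an interval below for 0. Crabp2, which carries retinoic acid to its receptors, had 81.6 CPM in slimming and 48.0 CPM in control oocytes, at a log2 ratio of 0.73 (interval 0.62 to 0.85). Dhrs3, which turns retinal back to retinol, had 13.4 (slimming) and 8.35 (control) CPM (0.65, 0.37 to 0.94). The retinol dehydrogenase Rdh10, highest in CPM at 249.2 (slimming) and 216.9 (control) CPM, stood at 0.17, and the retinoic acid synthase Aldh1a2, at 47.9 (slimming) and 39.2 (control) CPM, stood at 0.26. Another retinoic acid synthase, Aldh1a3, went the other way under 1 CPM, with 1 (slimming) and 16 (control) counts (-3.54, -9.47 to -1.39). The differences of Crabp2 and Dhrs3 ran against those of Rxra, Rxrb and Rara and along with that of Rarg. Crabp2 and Dhrs3 were also the 2 expressed genes of the 12 in the retinoic acid target list.

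Expressed genes of steroid supply differed little, and genes of low counts differed more, in both directions. Of 22 steroid genes 7 were expressed, 4 higher and 3 lower, with a median log2 ratio of 0.02. Srd5a3 had 218.1 CPM in slimming and 178.4 CPM in control oocytes (0.26), the membrane progesterone-binding protein Pgrmc2 had 194.4 (slimming) and 197.7 (control) CPM (-0.06), the aromatase Cyp19a1 34.5 (slimming) and 39.2 (control) CPM (-0.21) and Hsd17b4 11.9 (slimming) and 7.66 (control) CPM (0.60). Under 10 CPM, Hsd3b1 and Cyp11a1, enzymes of steroid-making cells, had 1 (slimming) and 72 (control) counts and 0 (slimming) and 17 (control) counts, the direction of Inha. Srd5a1 had 37 (slimming) and 3 (control) counts and Hsd11b1 24 (slimming) and 2 (control) counts. In the thyroid list, 3 of 9 genes were expressed, and Crym, a cytosolic protein that binds thyroid hormone, had 23.1 CPM in slimming and 42.8 CPM in control oocytes, 1.89-fold lower in slimming oocytes (log2 -0.92, interval -1.09 to -0.76). The thyroid hormone transporter Slc16a10 was near equal, at 38.0 (slimming) and 39.0 (control) CPM, and Slc7a5 stood at a log2 ratio of 0.35. Dio2, which activates thyroid hormone, had 77 (slimming) and 17 (control) counts, under 10 CPM. Of 11 genes of vitamin D and oxysterol metabolism only Soat1, which esterifies cholesterol, was expressed, at 9.69 (slimming) and 13.1 (control) CPM (-0.46).

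Among expressed target genes, those of the estrogen-related (5 genes) and the retinoic acid receptors (2 genes) were all higher in slimming oocytes, and those of the other receptors went both ways. Over all expressed genes 51.4% were higher. For Nr1h2, 4 of 13 liver X receptor targets were expressed, 2 higher and 2 lower: Lpl, Abcg1 and Srebf1 stood at log2 ratios of 0.06, -0.09 and 0.07, and Apoe had 9.64 CPM in slimming and 21.0 CPM in control oocytes, 2.22-fold lower in slimming oocytes (-1.15, interval -1.40 to -0.91). Apoe is also a gene of macrophages. With targets of at least 10 counts over both libraries but under 10 CPM added, 4 of 9 were at least 2-fold lower, 0 higher. Apart from Apoe these were Scd1 with 0 (slimming) and 27 (control) counts, Scd2 with 0 (slimming) and 30 (control) counts, and Abcg8. Scd1 and Scd2 are genes of fatty acid desaturation and passed 1 CPM in control oocytes alone. Abcg8 had 8 (slimming) and 17 (control) counts, with an interval that included 0 (-2.59 to 0.12). Among all genes of 1 to 10 CPM, a range that Abcg8 did not reach, 16.5% were at least 2-fold lower and 16.7% higher. No share of all genes was computed for the limit of 10 counts used here. At the same limit, 2 of 11 glucocorticoid targets were lower and 0 higher, and 2 of 5 retinoic acid targets lower and 0 higher. PPAR targets had 1 lower and 1 higher of 9, and estrogen-related receptor targets 1 lower and 0 higher of 12. REV-ERB and ROR targets had 0 and 0 of 9, and Nr6a1 targets 0 and 0 of 4. For Nr3c1, 5 of 15 glucocorticoid targets were expressed, 2 higher and 3 lower, with a median of -0.19. Ddit4, an inhibitor of mTOR, had 298.9 CPM in slimming and 510.0 CPM in control oocytes (-0.80, -0.85 to -0.76), and the phosphatase Dusp1 had 169.7 (slimming) and 255.3 (control) CPM (-0.62). Against these, Errfi1 stood at -0.19, and Fkbp5 and Nfkbia at 0.18 and 0.31.

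For Nr6a1, 4 of 8 targets were expressed. Gdf9 and Bmp15, oocyte growth factor genes that Nr6a1 is known to repress in mouse oocytes, had log2 ratios of -0.06 and 0.25, and Pou5f1, whose promoter is printed above, had 16.5 CPM in slimming and 11.3 CPM in control oocytes (0.52, interval 0.28 to 0.77). Prm2, a sperm protamine, stood at -0.20, with 19.8 (slimming) and 22.2 (control) CPM, while Nanog and Prm1 did not reach 10 CPM. Among estrogen-related receptor targets, 5 of 13 were expressed and 5 were higher, between Idh3a at 0.01 and the citrate synthase gene Cs at 0.48. Over all expressed genes 51.4% were higher. The counting interval lay above equal levels for 2 of the 5, against 37.7% of all expressed genes. For Idh3a, Acadm and Atp5g3 it included 0. Atp5b led with 886.5 CPM in slimming and 734.2 CPM in control oocytes (0.24). Acadm, which is also in the PPAR target list, stood at 0.23 and Atp5g3 at 0.20.

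For the PPARs, 4 of 20 targets were expressed, 1 higher and 3 lower. Fabp5 was near equal, at a log2 ratio of -0.04, Acadm stood at 0.23, and Cd36, a fatty acid transporter that macrophages also make, had 7.21 CPM in slimming and 12.4 CPM in control oocytes (-0.81, interval -1.11 to -0.52). For the REV-ERB and ROR receptors, 5 of 11 clock-related targets were expressed, 1 higher and 4 lower, with a median of -0.15. Cry1 led with 444.3 CPM in slimming and 481.8 CPM in control oocytes (-0.15), Arntl had 158.6 (slimming) and 129.4 (control) CPM (0.26), and Nfil3 had 44.4 (slimming) and 70.0 (control) CPM (-0.69). Bhlhe41, with 120 (slimming) and 203 (control) counts, stood at -0.84, and Clock at -0.10.

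**Figure D4:**
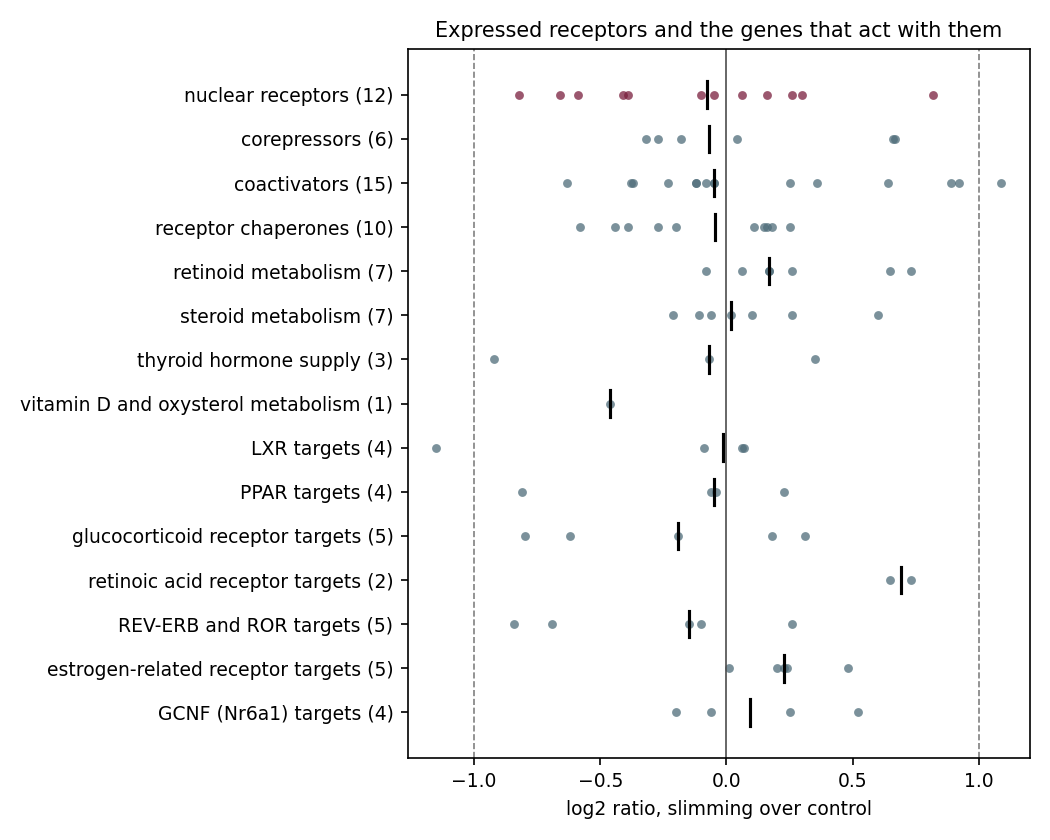
log2 ratio of slimming over control for expressed members of the receptor list and of 14 lists of genes that act with the receptors, with the number of expressed members in brackets, 1 point per gene and a black bar at the median. Dashed lines mark 2-fold. Most points of each list lie within 2-fold, and those beyond are Kmt2d on the right and Apoe on the left.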

How the data were processed

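mRNA was measured in 1 slimming and 1 control library, each from 9 pooled oocytes amplified for 18 and then 14 PCR cycles, per the labels' protocols. The authors deposited raw counts per Ensembl gene, the slimming library first per the file headers, and blanks for 18210 of 36227 genes; no gene was listed at 0 in both libraries, so a blank was read as 0. Also deposited by the authors, and not used here, were log2 ratios, a z-score (a score per gene) and p-values and q-values that compare the reads of 2 libraries. The submitters' processing notes name build mm9; how reads were aligned, counted and assigned to a strand is not given in the sources used here.

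Symbols, exon lengths and shared exons came from GENCODE vM21 (GRCm38), matched by Ensembl identifier. Promoter windows came from RefSeq, and those on chromosome 18 were left out. Of 18017 genes with counts 16913 had a symbol. Scaling for ratios used the TMM method of edgeR 4.0.16 (R 4.3.3), whose factors were 1.01 for slimming and 0.989 for control; CPM used total counts. The log2 ratio was taken after adding 0.5 to each count, with an exact Clopper-Pearson interval of the slimming share, and levels have exact Poisson intervals. With 1 library per group no test was possible, and genes were counted at 2-fold. The size rule and intervals were tried on simulated counts that held counting error only. Such counts leave out PCR copies and differences between oocytes, so the trial says nothing about these. Python 3.11.15 with scipy 1.17.1 was used.

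Every receptor above 1 CPM was named; from each list of other genes the 2 most abundant expressed members, up to 4 with the largest ratios and all at least 2-fold apart. Members and lists were chosen with earlier results of these data known, and the ranges of level used for percentiles after the values were seen. Prmt1 and Sts had no match. Some genes that the naming rule takes are not reported here.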

Additional observations from a re-analysis of the deposited data

How the results depend on the processing

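Scaling by total count or median-of-ratios factors and adding 1 or 5 to each count left the counts of expressed receptors and companion genes at least 2-fold apart as reported and changed the sign of none of the 26 receptor ratios; Rara, Rxrb and Rarg crossed 2-fold under at least 1 of them. The scalings moved the median of all expressed genes by at most 0.031 on the log2 scale. Of the recomputed receptor ratios, 103 stayed within the counting interval of the gene. The 1 that did not was Nr6a1, at 0.34 by total count. The low-level filter mattered most. At 1 CPM, 26 receptors counted, 3 at least 2-fold higher and 3 lower, with a median log2 ratio of -0.33, and 7 companion genes were higher and 14 lower. At 30 CPM, 7 receptors counted, with a median of 0.16, and 0 companion genes were higher and 0 lower. With no filter 4 receptors were higher and 8 lower, with a median of -0.41, and 16 and 31 companion genes. At 1.5-fold, 1 receptor was higher (Nr1h2) and 3 lower (Nr3c1, Nr5a2 and Nr2c1), and 9 and 8 companion genes; with the whole counting interval beyond 2-fold, 0 and 0 companion genes remained past the limit. The cause was not tested. Without receptors that share exon bases the median was 0.06, of opposite sign to the reported -0.08. Requiring 10 CPM in both libraries kept 9 receptors. Of the recomputed list medians 100 moved by less than the typical counting error of a gene and 11 by more, among them glucocorticoid targets (-0.51 at 1 CPM, -0.01 without genes that share exons), retinoic acid targets (-0.24 at 1 CPM) and Nr6a1 targets (-0.06 without genes that share exons). Dividing by the longest transcript gave 3 receptors at the same rank in both libraries. No paired analysis was possible because each group is 1 library. Below about 10 CPM the spread between libraries limits what a ratio can show.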
